A study of Mus musculus with 6 samples.

Results

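Apolipoproteins are the proteins on the surface of lipoprotein particles, and the liver makes most of those that circulate in plasma. The expression of 9 apolipoprotein genes (Apoa1, Apoa2, Apoa4, Apoa5, Apob, Apoc2, Apoc3, Apoe and Apom) and of Mttp, whose product loads lipid onto apolipoprotein B, was examined in mouse liver after exposure to trichloroethylene (TCE), a chlorinated solvent. All probes on the array that carry 1 of these 10 gene symbols were taken, which gave 13 of the 55681 probes that are not controls. Liver RNA came from 6 male B6C3F1 mice, a hybrid of the C57BL/6 and C3H strains, aged 7 weeks. The 3 control mice received corn oil, and the 3 TCE mice received TCE dissolved in corn oil at 1000 mg/kg b.w., by mouth once a day for 5 days, so that both groups carried the oil. Each mouse was measured on an Agilent array of its own with a single dye, and no RNA was pooled. The samples were whole liver tissue, with no sorting of cells.

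The particles differ in their apolipoproteins. Very low density lipoprotein (VLDL) carries triglyceride out of the liver and is built on apolipoprotein B, to which the microsomal triglyceride transfer protein encoded by Mttp adds lipid. High density lipoprotein (HDL) is built on apolipoproteins A-I and A-II and returns cholesterol to the liver. The small exchangeable apolipoproteins set how fast lipoprotein lipase clears triglyceride from plasma: apolipoprotein C-II activates the enzyme, A-V assists it and C-III restrains it, while apolipoprotein E is a ligand for uptake receptors. Several of these genes contain binding sites for nuclear receptors, among them the fatty acid sensor PPARalpha, which metabolites of TCE are known to activate in mouse liver.

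None of the 10 genes passed the threshold for a difference between TCE and control mice. By the probe that represents each gene, the differences nearest to it were a higher signal of Apoc2 and Mttp and a lower signal of Apob and Apoa1 in TCE mice, each between 1.24-fold and 1.33-fold, and in each of these genes the 3 TCE mice lay outside the range of the 3 control mice. All values below are log2 signals of single mice after quantile normalization, which gives every array the same distribution of signals. Differences were tested over 22736 detected probes with limma. It fits a linear model to each probe and moves the probe's own variance toward a value estimated from all of them. A difference was past the threshold when the Benjamini-Hochberg adjusted p was at most 0.05 and the signal differed at least 2-fold.

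A 60-base probe represents each transcript, and the probes of Apoa1, Apob and Mttp, which are among the genes nearest to the threshold, are shown with their positions on mouse build mm9, with both Apob probes, which did not behave alike, and the Apoa4 probe, whose 60 bases span 744 bases of the genome. The probes read 5′ to 3′, and each of those shown has at least 1 reading frame free of stop codons. Exon and UTR boundaries on mm9 were not used here.

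Apoa1 probe, chromosome 9, 46037921 to 46037980, plus strand: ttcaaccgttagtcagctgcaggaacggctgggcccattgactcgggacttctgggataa

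Apob probe, chromosome 12, 8012697 to 8012756, plus strand: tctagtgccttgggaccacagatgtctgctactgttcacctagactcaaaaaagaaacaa

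Apob second probe, chromosome 12, 8023194 to 8023253, plus strand: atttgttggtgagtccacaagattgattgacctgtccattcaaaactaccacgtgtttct

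Mttp probe, chromosome 3, 137753868 to 137753927, minus strand: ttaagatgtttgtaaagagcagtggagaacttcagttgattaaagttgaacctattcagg

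Apoa4 probe, chromosome 9, 46049661 to 46050404, plus strand: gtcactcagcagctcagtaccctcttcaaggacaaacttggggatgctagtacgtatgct

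All 13 probes were well above background on all 6 arrays, and none of their spots was saturated. Where a gene had more than 1 probe (Apoa2, Apob and Apoc3), the brighter probe (by its mean over the 6 arrays) represents the gene, and the second probe is given beside it. The array of control mouse 1 was alone on the first slide and scan, while those of the remaining 5 mice were together on the second. Between 23538 and 24971 probes per array were well above background, and Pearson's r over detected probes was 0.971 or higher between any arrays. As a check of the treatment, 24 of 25 listed PPARalpha targets were detected and 18 of them were higher in TCE mice at an adjusted p of 0.05 or less, with a median log2 fold change of 1.09 over the list. Of all detected genes 1.8% were higher at this limit. Among the 18, Acot2 and Cpt1b were well above background on 0 and 2 control arrays, so they counted as detected through the TCE group alone. The list was chosen with earlier results of these data known. With 3 mice a group the number of arrays limits the precision.

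The samples had the markers of liver parenchyma. All 8 hepatocyte markers (such as Alb and Ttr) were detected, their summed log2 signal was 21.09 to 21.14 in control mice and 21.09 to 21.21 in TCE mice, and 0 of the 8 passed the adjusted p by limma (2 at an unadjusted p under 0.05). Small intestine is the other main source of Apoa1, Apoa4, Apob and Mttp mRNA. Of 10 enterocyte markers 2 were detected, Vil1 and Fabp2. Vil1 was called lower in TCE mice, but it was well above background on 3 control arrays and 0 TCE arrays. It thus counted as detected through the control group alone, and the size of its difference is uncertain. Fabp2 had a log2 fold change of 0.54 ± 0.18 (adjusted p = 0.198). The groups did not overlap in either, and both had an unadjusted p under 0.05. The markers Sis, Alpi, Lct, Cdx1, Cdx2, Slc5a1 and Krt20 were not well above background on any array. The summed signal of the 10 enterocyte markers was 14.60 to 14.77 in control mice and 14.85 to 15.43 in TCE mice. This was almost entirely Fabp2, at 14.59 to 14.76 and 14.85 to 15.43, so the sum does not speak for the other markers. The 10 markers of Kupffer cells and macrophages, which can also express Apoe, were all detected, with summed signals of 14.69 to 14.87 and 14.60 to 14.95, and 0 passed at either an adjusted or an unadjusted p. Among the markers of stellate, endothelial, biliary, lymphoid and pancreatic acinar cells 0 passed the adjusted p by limma (2, 0, 0, 1 and 0 at an unadjusted p under 0.05). The 2 stellate markers were Lrat, at -1.35 ± 0.27 (adjusted p = 0.0677), and Ngfr, at -0.97 ± 0.20 (adjusted p = 0.0738). Both were lower in TCE mice without overlap, while of all 9 stellate markers 4 were higher and 5 lower. All 8 endothelial markers were lower in TCE mice, with summed signals of 14.85 to 14.93 in control mice and 14.05 to 14.93 in TCE mice. Of 8 lymphocyte markers 3 were detected, and the sum over the 8 was 13.91 to 14.21 in control mice and 12.39 to 13.88 in TCE mice, without overlap. This sum was mostly Cd4, with means of 14.01 in control mice and 13.08 in TCE mice (adjusted p = 0.279 by limma). Cd3e was far dimmer (9.59 and 8.95) and lower with overlap, and Cd79a was higher by 0.40 with overlap. Of 6 adipocyte markers Fabp4 alone was detected and was called higher in TCE mice, while Adipoq, Plin1 and Lep were not well above background on any array. The summed signal was 9.80 to 10.12 in control mice and 10.76 to 11.24 in TCE mice. It was mostly Fabp4, with means of 9.89 in control mice and 10.86 in TCE mice, and does not speak for the other markers. The part of these cells in the results was not tested. In whole tissue, fewer cells of a type and less RNA per cell cannot be told apart.

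**Figure D1:**
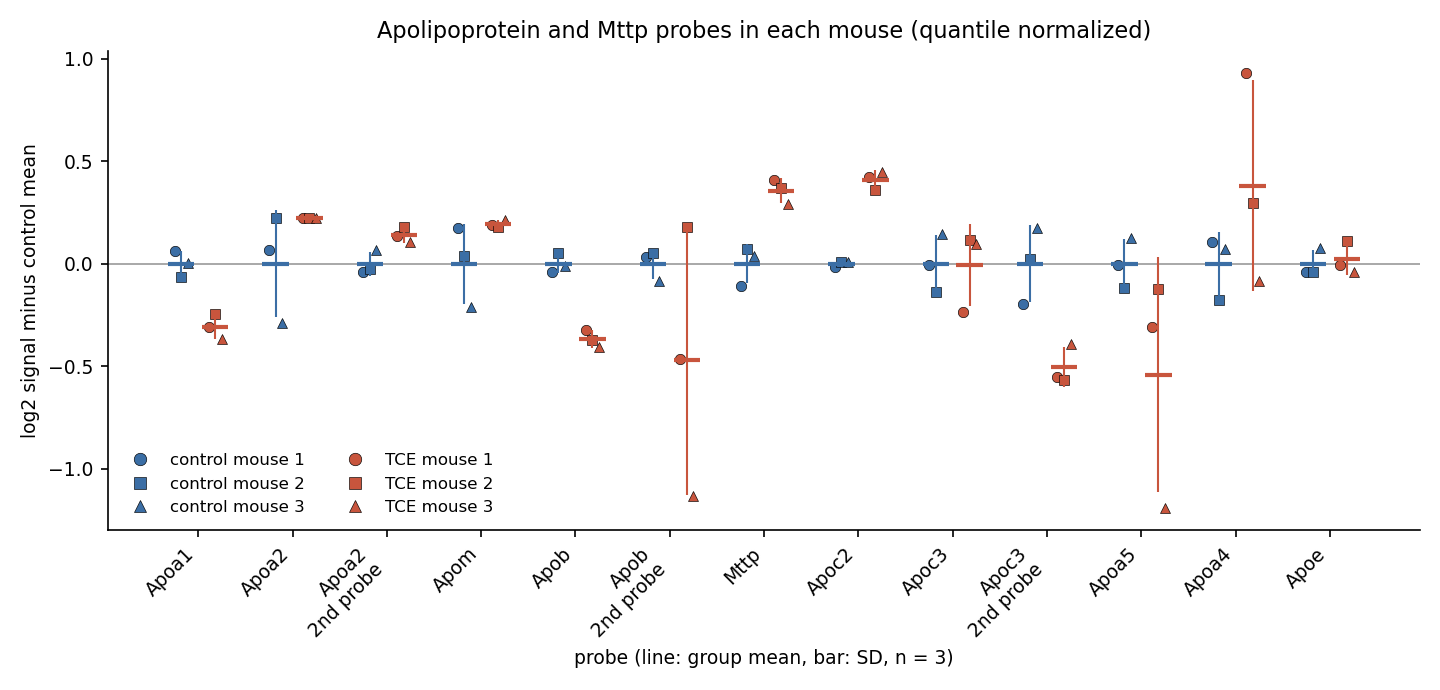
Log2 signal of each of the 13 probes in each mouse, minus the mean of the control mice (vertical axis), for control mice (blue) and TCE mice (red), with group means as lines and SD as bars (n = 3). The groups lie at least 0.04 apart in Apoa1, the first Apob probe, Mttp, Apoc2 and the second probes of Apoa2 and Apoc3, and TCE mouse 3 lies far below the others in Apoa5 and the second Apob probe.

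The first comparison concerned VLDL assembly. Apob encodes the structural protein of VLDL, which stays with its particle for life. The signal of its first probe was 16.39, 16.48 and 16.41 in control mice 1, 2 and 3 and 16.10, 16.05 and 16.02 in TCE mice 1, 2 and 3. All TCE mice were below all control mice, with 0.28 between the nearest mice of the groups. The log2 fold change was -0.37 ± 0.10 (SE, n = 3 per group, 95% interval -0.62 to -0.12), or 1.29-fold lower, with an adjusted p of 0.143. Within the second slide, which leaves out control mouse 1, it was -0.39 ± 0.13 (adjusted p = 0.266).

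The second Apob probe gave 15.00, 15.02 and 14.88 in control mice and 14.50, 15.15 and 13.84 in TCE mice. Here TCE mouse 2 was above every control mouse while TCE mouse 3 was more than a log2 unit below them, so that the groups overlapped. The log2 fold change was -0.47 ± 0.32 (95% interval -1.23 to 0.29, adjusted p = 0.491), and it was -0.14 without TCE mouse 3 and -0.80 without TCE mouse 2. The direction was the same for both probes, but the spread between TCE mice was wide in the second.

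Mttp encodes the transfer protein that moves triglyceride onto nascent apolipoprotein B in the endoplasmic reticulum. Its signal was 12.44, 12.62 and 12.59 in control mice and 12.96, 12.92 and 12.84 in TCE mice. All TCE mice lay above all control mice, by at least 0.22. Between the groups the log2 fold change was 0.36 ± 0.11 (95% interval 0.09 to 0.63), or 1.28-fold higher, with an adjusted p of 0.175. Within the second slide it was 0.30 ± 0.13 (adjusted p = 0.35).

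By the first Apob probe, the values of Apob and Mttp in the TCE mice lay on opposite sides of their control means. With each gene centred on its control mean, Mttp minus Apob was -0.07, 0.02 and 0.05 in control mice and 0.73, 0.74 and 0.70 in TCE mice. The spread between TCE mice in this difference was small (SD 0.02) next to its mean of 0.72. By the second Apob probe the difference was 0.87, 0.19 and 1.42 in TCE mice, with an SD of 0.62, so that the narrow spread belongs to the first probe. This pair of genes was chosen after its values were seen, so the difference is given as a description without a test.

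The second comparison concerned the cofactors of lipoprotein lipase. Apoc2 encodes apolipoprotein C-II, the obligate activator of the enzyme, and was measured by a probe on chromosome 7 (20257027 to 20257086, minus strand). The signal was 16.05, 16.07 and 16.07 in control mice and 16.48, 16.42 and 16.51 in TCE mice. The control mice were nearly identical, and the nearest TCE mouse was 0.35 above them. The difference on the log2 scale was 0.41 ± 0.10 (95% interval 0.17 to 0.65), or 1.33-fold higher, with an adjusted p of 0.113. Apoc2 was the gene of the 10 with the smallest p, and 763 of the 13288 detected genes had a smaller one.

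Apoc2 was also the single gene of the 10 whose call depended on the test after adjustment. The adjusted p was 0.0498 when limma weighted the arrays by their quality, and 0.0485 with the methods' t-test and Benjamini-Hochberg adjustment. Within the second slide the log2 fold change was 0.40 ± 0.13 (adjusted p = 0.251), and over all 20 alternatives it stayed between 0.39 and 0.45.

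Apoc3 encodes apolipoprotein C-III, which slows the clearance of triglyceride and is a known target of PPARalpha. The first probe (chromosome 9, 46041134 to 46041193, minus strand) gave 17.90, 17.77 and 18.05 in control mice and 17.67, 18.03 and 18.00 in TCE mice. The groups overlapped, with TCE mouse 1 below and the other TCE mice within the range of the control mice. This gave a log2 fold change of -0.01 ± 0.15 (95% interval -0.37 to 0.35, adjusted p = 0.988), whose sign turned without TCE mouse 1 (0.11) or without control mouse 3 (0.07).

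The second Apoc3 probe (46043606 to 46043665, minus strand) is assigned in the array annotation to an Ensembl transcript model and to no RefSeq transcript. It gave 8.90, 9.12 and 9.28 in control mice and 8.55, 8.53 and 8.71 in TCE mice, all 3 TCE mice being at least 0.19 below the control mice. The probe had a log2 fold change of -0.50 ± 0.14 (95% interval -0.84 to -0.17, adjusted p = 0.139). The probes of Apoc3 thus did not give the same picture, and neither passed the adjusted p.

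Apoa5 encodes apolipoprotein A-V, which helps the lipase act at the vessel wall. Its probe (chromosome 9, 46079943 to 46080002, plus strand) gave 12.89, 12.77 and 13.01 in control mice and 12.58, 12.77 and 11.70 in TCE mice. TCE mouse 2 lay just below control mouse 2, by 0.0026, whereas TCE mouse 3 lay more than a log2 unit below every control mouse. The log2 fold change of -0.54 ± 0.28 (95% interval -1.23 to 0.14, adjusted p = 0.383) was the largest in size among the 10 genes, and it was -0.21 without TCE mouse 3.

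Among all detected genes outside the 10, the profiles nearest to that of Apoa5 over the 6 mice, each centred on its control mean, were those of Mustn1, Rap2a and Loxl1, with root-mean-square differences of 0.111, 0.127 and 0.128 log2 units. Each of them had its lowest value in TCE mouse 3, as Apoa5 did. They were picked for a profile like that of Apoa5, so the selection itself favours this. By limma 0 of these 3 genes passed the adjusted p. Over the 10 genes, TCE mouse 3 had the lowest signal of its group in 6, TCE mouse 2 in 2 and TCE mouse 1 in 1. In Apoa2 the TCE mice were equal to 3 decimals. TCE mouse 3 also had the highest signal of its group in 2, and control mouse 2 had the lowest of its group in 4. The same count over all detected genes is not given here, so these counts do not set the 10 genes apart.

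The third comparison concerned the apolipoproteins of HDL. Apoa1 encodes the main structural protein of HDL and was printed 10 times on each array, with an SD between spots of 0.037 to 0.144 within an array. Its signal was 17.27, 17.14 and 17.21 in control mice and 16.90, 16.96 and 16.84 in TCE mice. All TCE mice were below all control mice, by at least 0.18. The log2 fold change was -0.31 ± 0.11 (95% interval -0.56 to -0.05), or 1.24-fold lower, with an adjusted p of 0.215. It was -0.28 ± 0.13 within the second slide (adjusted p = 0.385), and -0.46 when arrays were scaled to their 75th percentile in place of quantile normalization.

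Apoa2 encodes the other main HDL protein. Its first probe (chromosome 1, 173156445 to 173156504, plus strand) gave 18.51, 18.67 and 18.16 in control mice and 18.67 in each TCE mouse. The probe was among the brightest on the array, at ranks 3 to 24, and quantile normalization gives the same value to the same rank on every array. The identical values therefore show an equal rank and not an equal level. Apoa2 had a log2 fold change of 0.22 ± 0.15 (95% interval -0.15 to 0.59, adjusted p = 0.507), which became -0.0066 after 75th percentile scaling, so that its direction depends on the scaling. It was 0.078 without control mouse 3 and 0.33 without control mouse 2.

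The second Apoa2 probe (173156320 to 173156379, plus strand) gave 18.24, 18.25 and 18.35 in control mice and 18.41, 18.46 and 18.39 in TCE mice. The groups lay 0.04 apart, with a log2 fold change of 0.14 ± 0.10 (adjusted p = 0.529) that turned to -0.075 after 75th percentile scaling and to -0.051 after cyclic loess normalization. Both Apoa2 probes therefore had no settled direction.

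Apom encodes apolipoprotein M, the HDL carrier of sphingosine 1-phosphate. Its probe (chromosome 17, 35267047 to 35267106, minus strand) gave 15.70, 15.57 and 15.32 in control mice and 15.72, 15.71 and 15.74 in TCE mice. The TCE mice lay close together and above all control mice, but only 0.0062 above control mouse 1. Apom had a log2 fold change of 0.19 ± 0.13 (95% interval -0.13 to 0.52, adjusted p = 0.499), which was 0.089 without control mouse 3 and 0.28 without control mouse 1.

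The remaining genes were Apoa4 and Apoe. Apoa4 encodes apolipoprotein A-IV, made mainly in intestine in many species and also in mouse liver. Its signal was 11.55, 11.27 and 11.51 in control mice and 12.38, 11.74 and 11.36 in TCE mice. TCE mouse 1 was well above all control mice, whereas TCE mouse 3 was within their range. The log2 fold change was 0.38 ± 0.26 (95% interval -0.25 to 1.02, adjusted p = 0.504), and it was 0.11 without TCE mouse 1 and 0.62 without TCE mouse 3. With arrays weighted by quality it was 0.69 ± 0.25 (adjusted p = 0.149), with an unadjusted p under 0.05.

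Apoe encodes apolipoprotein E, the ligand through which remnant particles bind their receptors. Its probe (chromosome 7, 20281732 to 20281791, minus strand) was also printed 10 times, with an SD between spots of 0.053 to 0.251 within an array. The signal was 18.48, 18.48 and 18.59 in control mice and 18.51, 18.63 and 18.48 in TCE mice. The groups overlapped throughout, and the log2 fold change of 0.02 ± 0.11 (95% interval -0.24 to 0.29, adjusted p = 0.938) turned to -0.17 after 75th percentile scaling and to -0.14 after cyclic loess normalization. Apoe held ranks 4 to 9 of the array, where the equal values of different mice again stand for equal ranks.

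**Figure D2:**
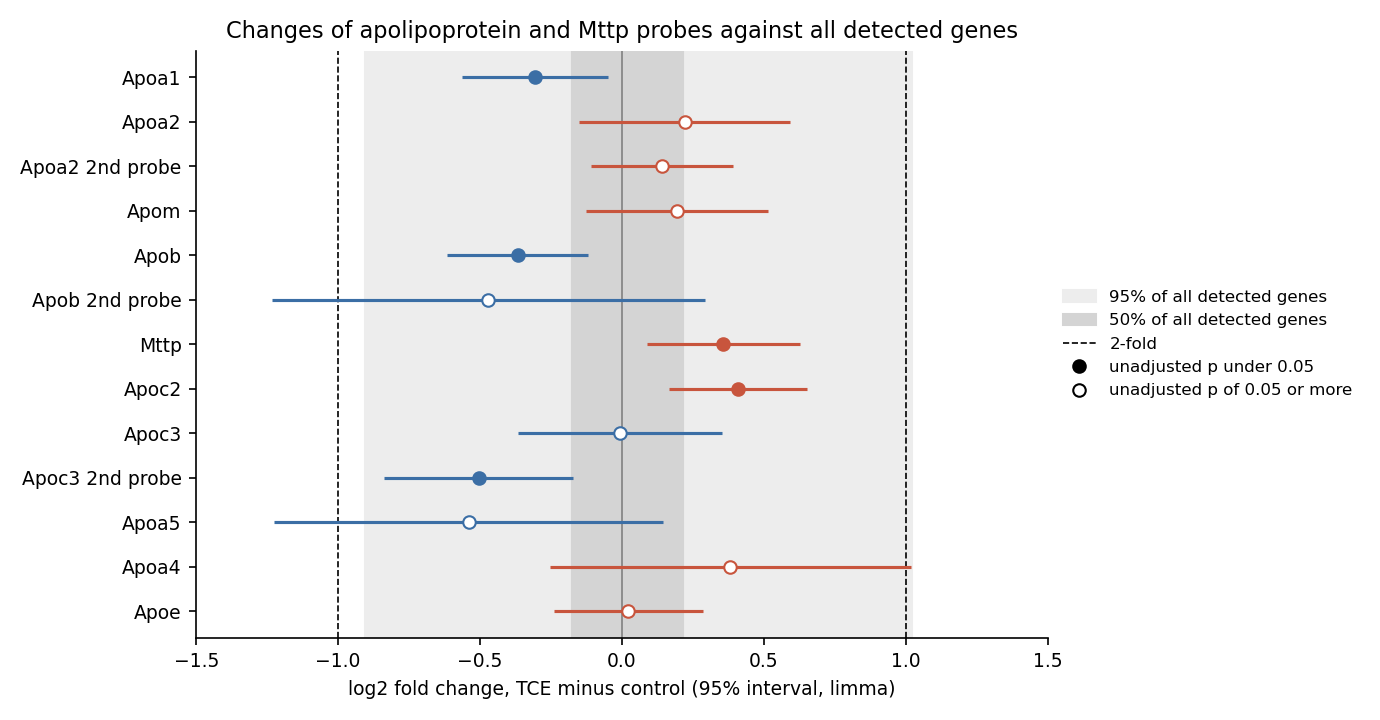
Log2 fold change, TCE minus control, of each of the 13 probes with its 95% limma interval (horizontal axis), over bands that hold 50% (-0.18 to 0.21) and 95% (-0.90 to 1.02) of all detected genes. Filled points have an unadjusted p under 0.05. All points lie inside the wider band, and the intervals of Apoa5, Apoa4 and the second Apob probe are the ones that cross a 2-fold line.

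Counted over genes, 0 of the 10 passed the adjusted p and the 2-fold limit by limma, where 230 of 13288 detected genes did (1.73%, with 1.3% higher and 0.429% lower in TCE mice). At the adjusted p alone 0 of 10 passed, against 2.39% of detected genes (1.8% higher and 0.587% lower). At an unadjusted p under 0.05 there were 4 of 10, Apoc2 and Mttp higher and Apoa1 and Apob lower, against 19.1% of detected genes (12% higher and 7.1% lower). The groups did not overlap in 6 of 10, Apoc2, Mttp and Apom being higher and Apoa1, Apob and Apoa5 lower, against 27.9% of detected genes (17.1% higher and 10.8% lower). The methods' t-test passed 1 of the 10, Apoc2, after adjustment without the fold limit.

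Counted over probes, 0 of 13 were past the threshold (1.41% of detected probes were), 0 at the adjusted p alone (2.01%), and 5 of 13 had an unadjusted p under 0.05 (17.9%), the fifth being the second Apoc3 probe. The count of genes at the unadjusted p was 2 without control mouse 1 and 2 without TCE mouse 1, Apob and Apoc2 in both cases. The median log2 fold change was 0.11 over the 10 genes, 6 higher and 4 lower, and 0.02 over all detected genes. The median absolute log2 fold change was 0.33 and 0.20, and the median standard error 0.12 and 0.16, respectively.

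**Figure D3:**
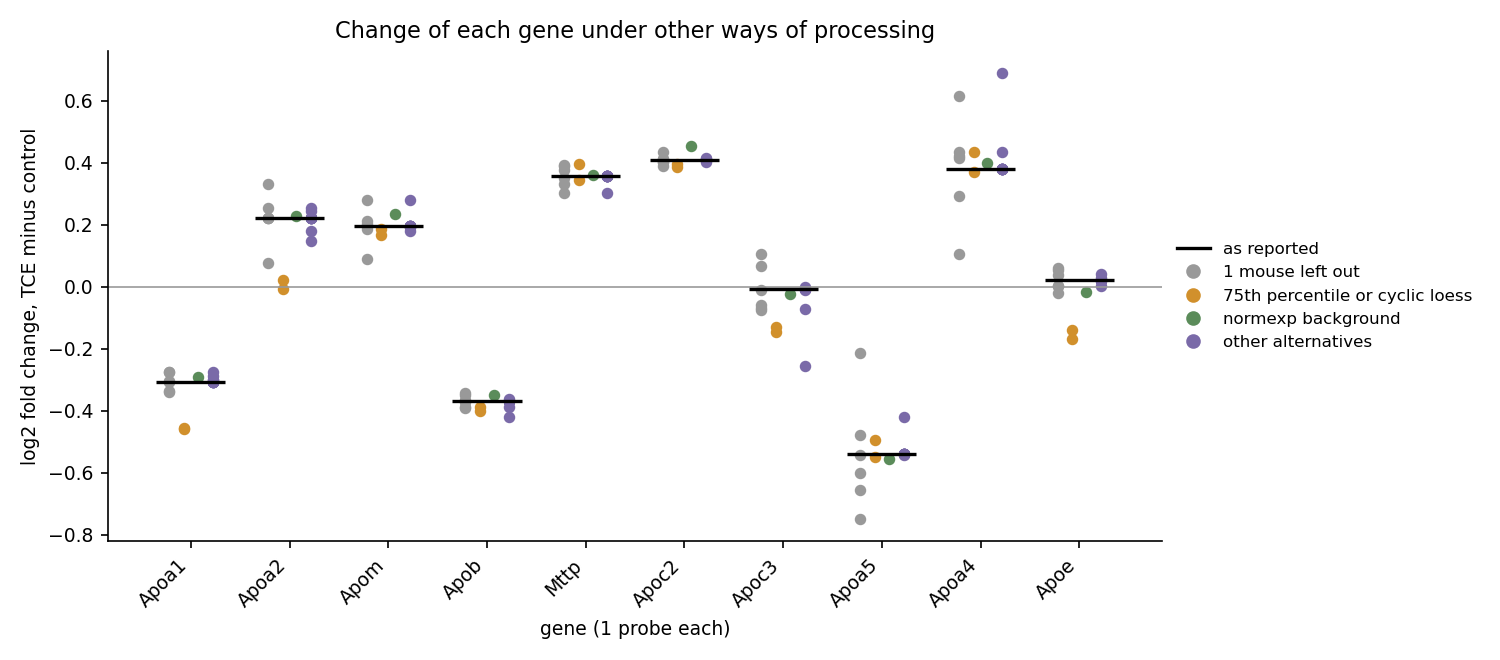
Log2 fold change, TCE minus control (vertical axis), of the probe standing for each gene as reported (black line) and under 20 other ways of processing the same 6 arrays (points, coloured by kind). Apoc2, Mttp, Apob, Apoa1, Apoa4, Apoa5 and Apom stay on 1 side of 0 throughout, whereas the points of Apoa2, Apoc3 and Apoe fall on both sides.

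The 10 genes were also viewed by position. Apoa1, Apoc3, Apoa4 and Apoa5 lie together on chromosome 9, between 46037921 and 46080002 of mm9 by their probes, and their log2 fold changes were -0.31, -0.01, 0.38 and -0.54 in that order. Of 7 listed genes next to this cluster all were detected, 4 were higher and 3 lower, and 0 passed the adjusted p (1 at an unadjusted p under 0.05). The smallest p there was that of Pafah1b2, a subunit of the platelet activating factor acetylhydrolase, at 0.32 ± 0.12 (adjusted p = 0.238). Apoc2 and Apoe lie on chromosome 7, and 9 genes next to them were detected, 7 higher and 2 lower, with 0 past the adjusted p (3 at an unadjusted p under 0.05). Cblc, which encodes a ubiquitin ligase, had the smallest p at 0.53 ± 0.15 (adjusted p = 0.136). Apoc1 and Apoc4, the apolipoprotein genes between Apoe and Apoc2, had log2 fold changes of -0.01 and 0.06.

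RefSeq promoters of build GRCm38.p6, from 250 bases before to 50 bases after the transcript start, were given for 9 of the 10 genes, all but Apoc3, and were searched on both strands. The half-site of nuclear receptors, AGGTCA, was in the promoters of Apoa2 and Apoc2 and in 18.1% of 27025 genes. A pair of these half-sites with a single base between them, the DR1 element of PPARalpha and HNF4A, was in 0 of 9 (0.0481% of genes), and the HNF4A motif CAAAGTCCA in 0 of 9 (0.555%). The forkhead motif TGTTTAC was in Apoa2 and Apoe (4.05% of genes), and TATAAA, the TATA box, in Apoa2, Apoa5, Apob and Apoe (15.7%). The AGGTCA letters are part of the DR1 element, so these searches overlap. No match says only that the letters were not in these 300 bases. The 250 bases before the start are shown for the gene nearest to the threshold on the higher side, with AGGTCA in capitals, and on the lower side, with TATAAA in capitals.

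Apoc2 promoter, GRCm38.p6, chr7:19677942-19678191, minus strand: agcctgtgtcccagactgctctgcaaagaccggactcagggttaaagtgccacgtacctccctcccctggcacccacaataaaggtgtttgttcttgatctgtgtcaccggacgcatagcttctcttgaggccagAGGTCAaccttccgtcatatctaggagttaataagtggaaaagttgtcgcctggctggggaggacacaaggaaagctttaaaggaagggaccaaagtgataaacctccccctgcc

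Apob promoter, GRCm38.p6, chr12:7977427-7977676, plus strand: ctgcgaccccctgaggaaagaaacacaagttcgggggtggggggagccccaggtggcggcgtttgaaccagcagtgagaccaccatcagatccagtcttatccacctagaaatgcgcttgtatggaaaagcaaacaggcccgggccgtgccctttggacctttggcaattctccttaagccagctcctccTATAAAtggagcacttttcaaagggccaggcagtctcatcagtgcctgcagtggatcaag

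Genes of lipoprotein metabolism, transcription factors of apolipoprotein genes and the chromosomal neighbours above made up 8 lists, which hold 118 detected genes outside the 10. Of these, 7 passed the adjusted p, 6 higher and 1 lower in TCE mice. Among all detected genes 2.39% passed (1.8% higher and 0.587% lower), and 7059 were higher and 6229 lower at any p. The counts of single lists below are to be read beside these shares, and no list was tested as a set. The signal of each of the 7 exceeded background on every array.

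Of 10 other apolipoproteins 9 were detected (all but Apod), with 5 higher, 4 lower and a median log2 fold change of 0.06. None passed the adjusted p by limma, and 1 had an unadjusted p under 0.05. This was Apoo, which encodes a protein found on mitochondria and HDL, at 0.36 ± 0.11 (adjusted p = 0.177).

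All 25 genes of VLDL assembly and secretion were detected, 18 higher and 7 lower, with a median of 0.15, and 2 passed the adjusted p, both higher. Pltp, the phospholipid transfer protein, had a signal of 8.95 to 9.50 in control mice and of 10.68 to 11.02 in TCE mice. The groups were far apart, and Pltp rose by a log2 fold change of 1.57 ± 0.18, or 2.98-fold (adjusted p = 0.0150). The call was lost without control mouse 1, control mouse 2 or TCE mouse 1, with an adjusted p of up to 0.0657. Fitm2, which partitions triglyceride into cytosolic lipid droplets, gave 12.41, 12.41 and 12.80 in control mice and 13.86, 13.75 and 13.63 in TCE mice. It rose by 1.21 ± 0.15, or 2.31-fold (adjusted p = 0.0205), a call kept without control mouse 3 and lost without any other mouse (adjusted p up to 0.1).

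Of 17 genes of HDL formation and remodelling 15 were detected, 10 higher and 5 lower, with a median of 0.12. Pltp, which is in this list too, was the 1 gene past the adjusted p. Of 14 genes that control the lipase 13 were detected, 5 higher and 8 lower, with a median of -0.05, and Angptl4 passed. Angptl4, which encodes an inhibitor of lipoprotein lipase and is a target of PPARalpha, gave 15.19, 15.34 and 15.27 in control mice and 16.24, 16.49 and 16.18 in TCE mice. It rose by 1.04 ± 0.13, or 2.05-fold (adjusted p = 0.0191), and the call was lost without any 1 control mouse or TCE mouse 1 (adjusted p up to 0.0885). The lipase cofactors Apoc2, Apoc3 and Apoa5 did not pass. Lpl, the gene of the lipase itself, was higher by 0.59 ± 0.24 (adjusted p = 0.271). Gpld1, also in this list, had a log2 fold change of -0.70 ± 0.16 (adjusted p = 0.102). The groups did not overlap in either gene, and neither passed.

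Among 19 lipoprotein receptors and uptake genes 18 were detected, 9 higher and 9 lower, with a median of -0.0035, and 2 passed the adjusted p. Cd36, a fatty acid and lipoprotein scavenger receptor, gave 7.23, 7.16 and 6.58 in control mice and 9.72, 10.01 and 10.13 in TCE mice, and rose by 2.96 ± 0.21, or 7.80-fold (adjusted p = 0.00301). This call was kept without each mouse in turn (adjusted p from 0.0107 to 0.0223). Vldlr, the VLDL receptor, gave 5.99, 5.71 and 5.43 in control mice and 7.39, 8.16 and 8.10 in TCE mice, and rose by 2.17 ± 0.25, or 4.49-fold (adjusted p = 0.0155). Without control mouse 2, control mouse 3, TCE mouse 2 or TCE mouse 3 the adjusted p of Vldlr was above the threshold, at up to 0.0814. Both genes were dim in control mice, and with normexp background correction the log2 fold change was 1.40 for Vldlr and 2.40 for Cd36.

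All 31 transcription factors listed for apolipoprotein genes were detected, 9 higher and 22 lower, with a median of -0.25, and 2 passed the adjusted p. Jun, a subunit of AP-1, gave 10.02, 9.84 and 10.89 in control mice and 12.49, 13.34 and 12.46 in TCE mice. It rose by 2.52 ± 0.36 (adjusted p = 0.0287), a call kept without control mouse 3 and lost without any other mouse (adjusted p up to 0.115). Foxa2, a forkhead factor of hepatocytes, gave 12.23, 12.37 and 12.65 in control mice and 11.45, 11.45 and 11.15 in TCE mice. It fell by 1.07 ± 0.16 on the log2 scale (adjusted p = 0.0319), and this call was lost without any 1 mouse (0.0739 to 0.129). The genes of HNF4A and PPARalpha, which are in this list, did not pass.

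**Figure D4:**
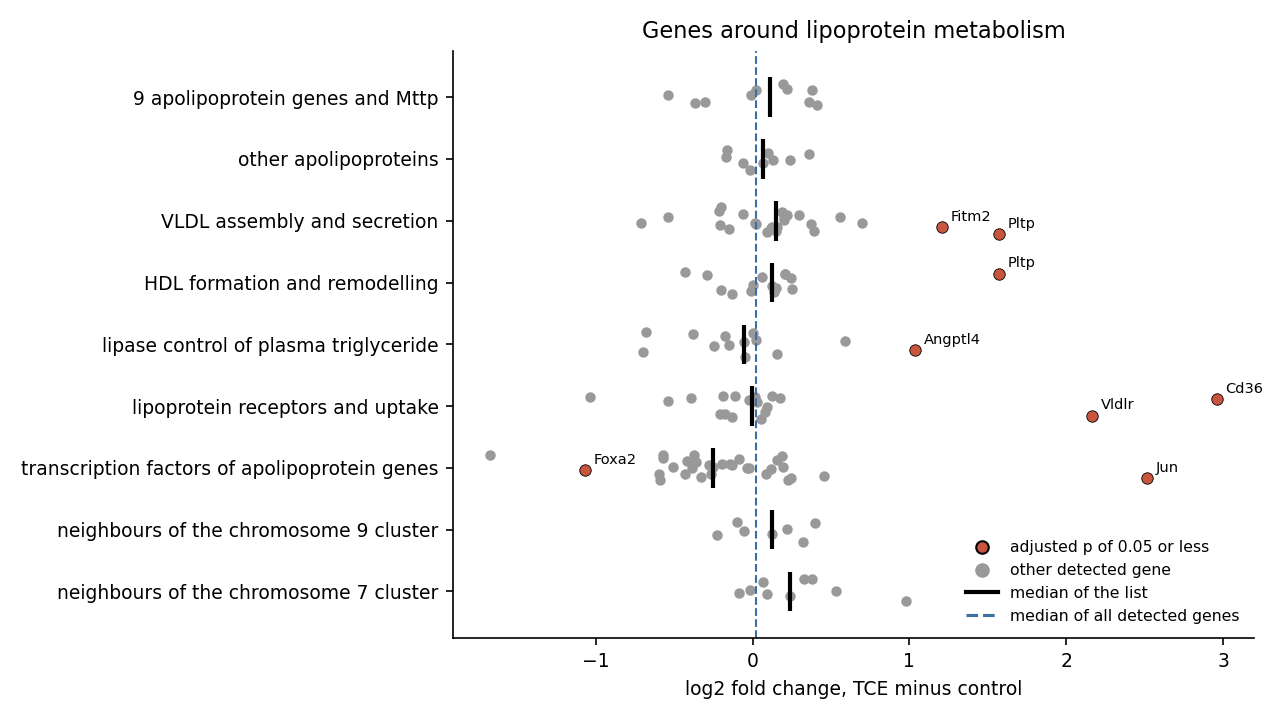
Log2 fold change, TCE minus control (horizontal axis), of every detected gene in the 10-gene set and in the 8 lists of related or neighbouring genes. The median of each list is a black bar, and the median of all detected genes (0.02) is a dashed line. Red points have an adjusted p of 0.05 or less and carry their gene symbols. The 10 genes lie between -0.54 and 0.41, with no red point among them.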

How the data were processed

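Liver RNA of 6 mice was measured on Agilent one-colour mouse arrays (mm9 probe positions). The authors analyzed the scanned images with Feature Extraction 10.7.1.1 and deposited a background-corrected intensity for each spot, with the spot flags. They also deposited the group means as intensity and as quantile-normalized log2 values, without values of single mice. In that file 6 flag columns of single samples were not used.

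The deposited intensity was put on the log2 scale without a pseudocount. Outlier spots (123 to 189 per array) were set to missing, spots of a probe averaged and arrays quantile normalized. The resulting group means lay within 0.0207 of the authors' log2 means for the 13 probes. A probe counted as detected if it was well above background in all 3 mice of either group. Detected probes entered limma 3.58.1 (lmFit, eBayes, two-sided, group only) in R 4.3.3, with data.table (1.17.8) and statmod (1.5.0), and p-values were adjusted over all detected probes by Benjamini-Hochberg. The procedure was tested on simulated data. Figures used matplotlib 3.10.9.

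The genes, lists and markers were chosen with earlier results of these data known. Outside the 10 genes, up to 3 genes past the adjusted p were named per list, by smallest p, or else the 1 with the smallest p, plus the 3 profiles nearest to that of the gene with the largest change. Single markers and PPARalpha targets, Apoc1, Apoc4, Lpl, Gpld1 and the genes of HNF4A and PPARalpha were named outside this rule. The 20 alternatives covered scaling, background, filters, blocks, weights, the methods' t-test, probe choice and each mouse left out. Cyclic loess was added after the data were seen. Some listed items are not reported here.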

Additional observations from a re-analysis of the deposited data

How the results depend on the processing

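A p that missed the threshold in 3 mice per group does not show that a gene did not differ. Under the 19 alternatives that give a test, 0 of the 10 genes were past both limits. At the adjusted p alone the count was 1 with array weights and 1 with the methods' t-test after Benjamini-Hochberg adjustment, 4 with that t-test unadjusted, and 0 to 0 without any 1 mouse. The labels number the replicates and do not say whether same-numbered mice were paired. Deviations of same-numbered mice correlated at 0.09, 0.01 and -0.09 over detected probes, which does not settle whether they were. With the replicate number as a block, 0 of the 10 genes and 0 of the other genes in the 8 lists passed. In that fit 63 probes were past the threshold in place of 321.

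Of the genes in the 8 lists outside the 10, 7 passed the adjusted p as reported. The count was 1 without the filter on dim probes, 2 with the slide as a block and 0 with the adjusted t-test. It was 1 to 4 without any 1 mouse (lowest without control mouse 2), while the unadjusted t-test gave 23. Probes past the threshold numbered 177 with the slide as a block, 563 with array weights, 35 and 594 with the adjusted and unadjusted t-test, 96 without the filter, and 124 to 242 without any 1 mouse.

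Directions turned in the brightest genes. The Apoa2 probes went to -0.0066 and -0.075 after 75th percentile scaling, and the second to -0.051 after cyclic loess normalization. Apoe went to -0.17 and -0.14 under these scalings, to -0.017 with normexp background correction and to between -0.022 (without TCE mouse 2) and 0.061 when 1 mouse was left out. Apoc3 ranged from -0.076 to 0.11 when 1 mouse was left out, at 0.066 without control mouse 3 and 0.11 without TCE mouse 1. Of the 10 genes 4 were higher and 6 lower after 75th percentile scaling, and 5 each after cyclic loess or normexp. The cause was not tested.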
